A study of Mus musculus with 4 samples.

Results

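In all, 9 genes that mark the striatum and the thalamus, regions beside or beneath visual cortex, were looked up on arrays of mouse visual cortex as a check of tissue carried over at dissection. The members were 7 striatal genes (Drd1, Drd2, Adora2a, Ppp1r1b, Rgs9, Pde10a and Adcy5) and 2 thalamic genes (Prkcd and Tcf7l2). A member was followed through each probe set whose single gene symbol in the platform's annotation was that gene. Of the 9 genes, 4 had such a probe set: Drd2 and Rgs9 had 1 each, and Prkcd and Tcf7l2 had 2 each. These were 6 of 12488 probe sets on each array. No probe set was annotated to Drd1, Adora2a, Ppp1r1b, Pde10a or Adcy5, alone or with another gene, so these 5 were not analysed here. The check of striatal tissue therefore rests on Drd2 and Rgs9, without the D1 receptor, the adenosine receptor or DARPP-32 (the product of Ppp1r1b).

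Striatal projection neurons receive dopamine and adenosine through receptors that raise or lower cyclic AMP. The D2 receptor, coupled to inhibitory G proteins, and the adenosine receptor encoded by Adora2a act against each other on adenylyl cyclase in one class of these neurons, while the D1 receptor marks the other class. RGS9 shortens signalling by switching off G proteins. In the thalamus, relay neurons express the kinase PKC delta (Prkcd) and the Wnt-pathway transcription factor Tcf7l2. Neither gene is limited to the thalamus: PKC delta also marks neurons of the central amygdala, and Tcf7l2 is made by maturing oligodendrocytes.

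All tissue came from wild-type C57Bl6 mice reared without light until postnatal day 42, when an eye was removed, and then given a normal cycle of light and dark for 4 days up to day 46. Visual cortex contralateral to the removed eye formed the deprived group and ipsilateral cortex the non-deprived group, with 2 arrays each. Tissue was pooled within a side. How the 5 mice were divided over the arrays is unknown here. The p-values rest only on the spread of these 4 arrays, taken largely from other probe sets of similar signal.

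Each array gave a MAS5 signal per probe set, a linear brightness in arbitrary units that is not comparable between probe sets. Below, pairs of signals stand in the order replicate 1, replicate 2. The median signal was 245.7 on deprived array 1, 189.9 on deprived array 2, 229.6 on non-deprived array 1 and 209.6 on non-deprived array 2. Fold changes were tested with limma on log2(signal + 60.6), for the 7458 probe sets with a mean signal of at least 142.9. Of the 6 member probe sets, 5 reached this signal. Of the 11 measured markers of cortical projection neurons 10 reached this signal at their brightest probe set and Rasgrf2 did not. The mean signals of the 11 ran from 56.7 for Rasgrf2 to 6211 for Mef2c, and Tbr1, a transcription factor of deep-layer neurons, gave between 3331 and 4396.

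No member passed the test. All 5 tested member probe sets had an adjusted p of 0.999 in limma, and none had an unadjusted p under 0.05. Over all tested probe sets 0.107% were called, 8 in number and all lower in the deprived cortex, and 5.43% had an unadjusted p under 0.05. All 6 member probe sets had their lowest signal on deprived array 2, and 5 of the 6 had their highest on deprived array 1. Of all 12422 non-control probe sets 32.6% were lowest on deprived array 2, 39.3% were highest on deprived array 1, and 17.1% were both.

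Drd2, the D2 dopamine receptor gene, had signals of 411.4 and 132.3 in deprived tissue, against 250.8 and 181.1 in non-deprived tissue. The deprived arrays lay on either side of both non-deprived ones and differed from each other 3.11-fold, the largest such ratio among the 6 probe sets. The deprived mean was 271.9 ± 197.4 and the non-deprived mean 215.9 ± 49.3 (SD, n = 2 each), and the difference was smaller than the spread within the deprived group. In limma the log2 fold change was 0.14 ± 0.48 (SE), with a 95% interval from -0.91 to 1.19 and an adjusted p of 0.999. In pairs, the log2 difference was 0.60 and 0.97 for deprived array 1 and -0.69 and -0.33 for deprived array 2, each against non-deprived arrays 1 and 2 in turn. Without deprived array 1 the log2 fold change was -0.51 and without deprived array 2 it was 0.78. Without non-deprived array 2 it was -0.045, so leaving out either of 2 arrays turned its sign.

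Rgs9, the gene of the G-protein regulator RGS9, was the dimmest member. Its signals were 77.2 and 33.6 in deprived tissue, against 55.7 and 71.2 in non-deprived tissue. Its mean of 59.4 lay at the 19.6th percentile of all probe sets, below the minimum for testing. The groups overlapped, and the ratio of deprived array 1 to 2 was 2.30. When no minimum was set, the log2 fold change was -0.12 ± 0.44 (SE), with an adjusted p of 1.00 in limma.

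**Figure D1:**
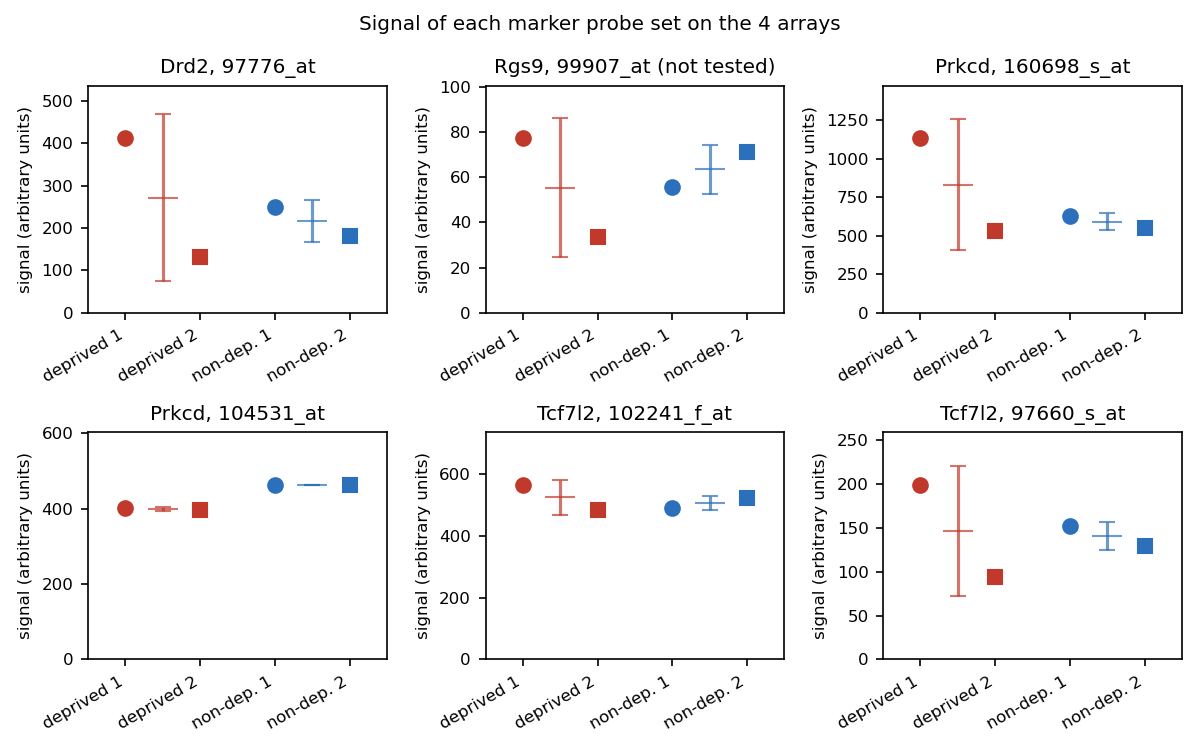
Signal in arbitrary units of each member probe set on the 4 arrays, with deprived arrays in red and non-deprived arrays in blue. Dashes with bars are the group mean and SD (n = 2). All 6 probe sets are lowest on deprived array 2, and all but Prkcd 104531_at are highest on deprived array 1.

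Prkcd, the gene of the kinase PKC delta, had 2 probe sets, whose fold changes differed in sign. At the brighter one, 160698_s_at, the signals were 1132.3 and 530.8 in deprived tissue, against 630.5 and 554.0 in non-deprived tissue. Deprived array 1 stood above the other 3, which lay close together. The log2 fold change was 0.37 ± 0.30 (SE), with a 95% interval from -0.29 to 1.02 and an adjusted p of 0.999 in limma. It was -0.14 without deprived array 1 and 0.87 without deprived array 2, where the adjusted p was 0.10, the lowest of any member under any alternative run.

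At the other Prkcd probe set, 104531_at, the signals were 402.9 and 395.6 in deprived and 463.1 and 462.4 in non-deprived cortex. Here replicates nearly coincided, and both deprived arrays lay below both non-deprived arrays. Over all tested probe sets 17.1% had their groups apart in this direction. The log2 fold change was -0.19 ± 0.26 (SE), with a 95% interval from -0.76 to 0.39 and an adjusted p of 0.999 in limma. This SE draws largely on other probe sets of similar signal, so it is wider than the spread of these replicates. The 4 pairs ran from -0.20 to -0.17, and this was the 1 member probe set with the same sign in every pair. The high signal of deprived array 1 at 160698_s_at was thus not seen at 104531_at, where deprived array 1 was 1.02-fold above deprived array 2.

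Tcf7l2, which encodes a transcription factor of the Wnt pathway, also had 2 probe sets. The brighter, 102241_f_at, gave 564.5 and 483.9 in deprived tissue, against 490.0 and 522.8 in non-deprived tissue. The groups overlapped, and the highest signal was 1.17-fold above the lowest. Its log2 fold change was 0.04 ± 0.24 (SE), with a 95% interval from -0.49 to 0.58. The suffix of this probe set marks probes that can match a family of related sequences, so its signal may not come from Tcf7l2 alone. Whether the probes of other member probe sets, such as Prkcd 160698_s_at and Tcf7l2 97660_s_at, match other sequences was not examined.

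The dimmer Tcf7l2 probe set, 97660_s_at, gave 199.3 and 94.2 in deprived tissue, against 152.5 and 129.9 in non-deprived tissue. Its mean signal of 144.0 was just above the minimum for testing. The arrays fell in the same order as for Drd2, and deprived array 1 was 2.12-fold above deprived array 2. The group means were nearly equal, with a log2 fold change of -0.01 ± 0.56 (SE) and a 95% interval from -1.24 to 1.23. It was -0.38 without deprived array 1 and 0.37 without deprived array 2. Both Tcf7l2 probe sets had an adjusted p of 0.999 in limma.

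**Figure D2:**
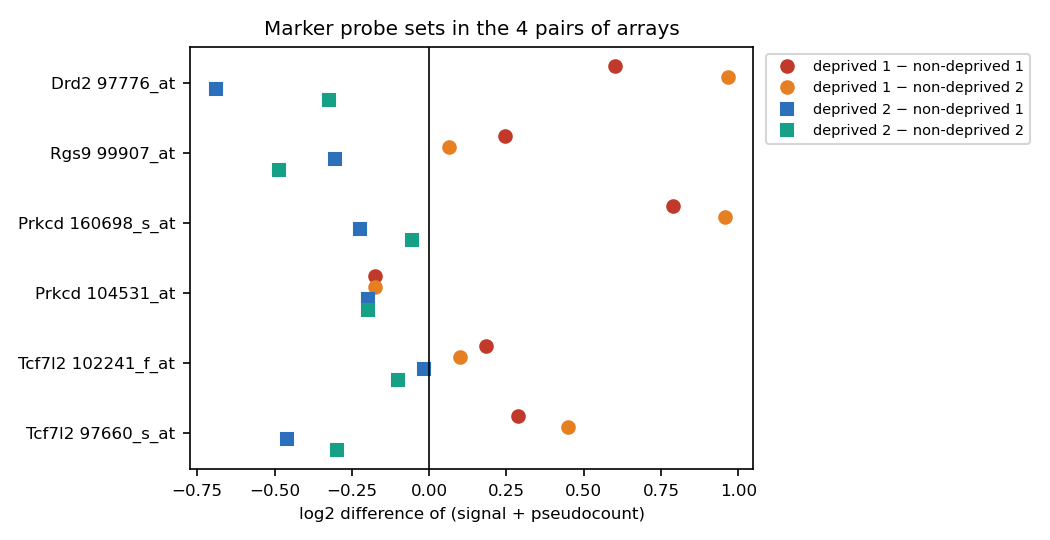
Log2 difference of (signal + 60.6), deprived minus non-deprived, in each of the 4 pairs of arrays for each member probe set. Circles are pairs with deprived array 1 and squares pairs with deprived array 2. For 5 of the 6 probe sets all circles lie above 0 and all squares below, while for Prkcd 104531_at all 4 pairs lie near -0.19.

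Over the 3 tested genes, each taken at its brightest probe set, the median log2 fold change was 0.14, against 0.001 over all 7458 probe sets. The median of the members was 0.60 and 0.96 when deprived array 1 was set against non-deprived array 1 or 2, and -0.22 and -0.10 when deprived array 2 was. Over all tested probe sets the same medians were 0.007, 0.018, -0.05 and -0.003. Prkcd entered the members' medians at 160698_s_at. At its other probe set, 104531_at, the 4 pairs ran from -0.20 to -0.17, so the members' medians depend on which Prkcd probe set is used. The 6 member probe sets stand for 4 genes, and probe sets of 1 gene are not independent.

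The order of the arrays depended on brightness. The tested probe sets were put in 5 bands of equal size by mean signal. In band 1, the dimmest, with mean signals from 143.0 to 235.5, 43.2% were highest on deprived array 1 and 12.7% on deprived array 2. In band 5, the brightest, the shares were 11.3% and 50.7%. Deprived array 1 was highest for 41.3% of band 2, 35.4% of band 3 and 28.2% of band 4. Below the minimum for testing, where Rgs9 lay, 50.5% of 4964 probe sets were highest on deprived array 1 and 40.6% lowest on deprived array 2. The median ratio of deprived array 1 to deprived array 2 was 1.33 in band 1, which held Tcf7l2 97660_s_at, and 1.21 in band 2, which held Drd2. It was 1.07 in band 3, with Prkcd 104531_at and Tcf7l2 102241_f_at, and 0.991 in band 4, with Prkcd 160698_s_at. The ratios of Tcf7l2 97660_s_at (2.12), Drd2 (3.11), Tcf7l2 102241_f_at (1.17) and Prkcd 160698_s_at (2.13) were above the median of their band, and that of Prkcd 104531_at (1.02) was below it. Whether these differences of signal scale between arrays had a part in the members' pattern was not tested.

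**Figure D3:**
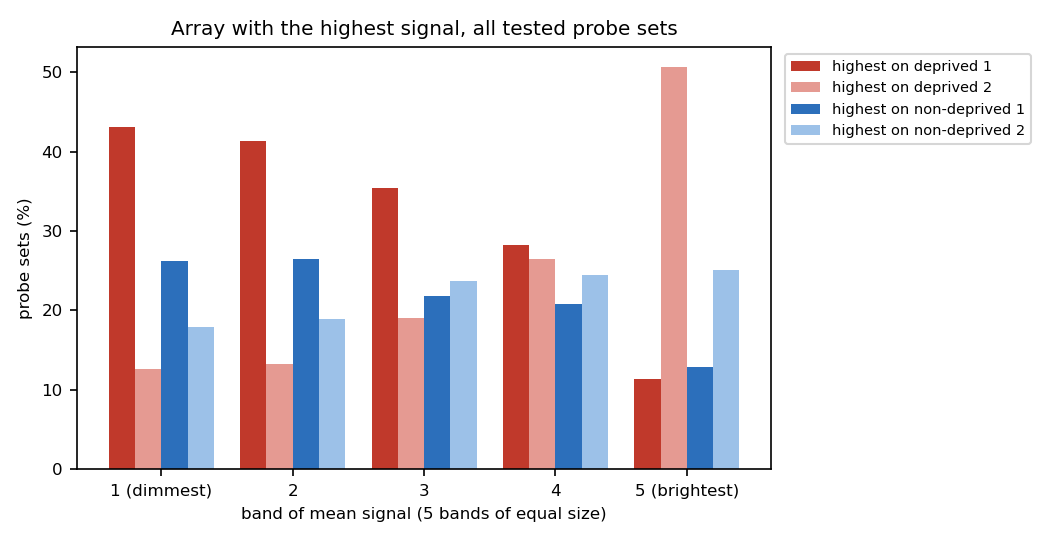
Share of tested probe sets, in percent, with the highest signal on each array, for 5 bands of equal size of the 7458 tested probe sets ordered by mean signal. Deprived array 1 leads in bands 1 to 4 (43.2%, 41.3%, 35.4% and 28.2%) and deprived array 2 in band 5 (50.7%). The tested members lie in bands 1 to 4.

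Other marker genes of the same regions were set beside the members. Of 16 further thalamic markers 11 had a probe set and 9 were tested. None passed, 7 were higher and 2 lower in deprived cortex, and the median log2 fold change was 0.14. In the 4 pairs their median was 0.28 and 0.33 with deprived array 1 and -0.19 and -0.01 with deprived array 2. At their brightest probe sets 9 of the 11 were highest on deprived array 1. Their summed signal was 5868 and 4334 in deprived tissue, against 4772 and 4448 in non-deprived tissue, and no gene was listed at 0. Adarb1, an RNA-editing enzyme, gave 1229 and 1015.8 in deprived and 1032.4 and 966.8 in non-deprived cortex. Lef1, a transcription factor of the same family as Tcf7l2, had a log2 fold change of -0.10 ± 0.22 (SE). That of Cacna1g, a T-type calcium channel of relay neurons, was 0.55 ± 0.48, and both genes had an adjusted p of 0.999 in limma. A dimmer Lef1 probe set, below the minimum for testing, went the other way. It gave 89.9 and 103.7 in deprived and 32.3 and 29.8 in non-deprived cortex. With no minimum set, its log2 fold change was 0.78 ± 0.43 (SE). For Gbx2, a transcription factor that defines developing thalamic neurons, the signals lay between 16.1 and 34.1.

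Of 24 further striatal markers 17 had a probe set and 9 were tested, of which 6 were higher, 3 lower and none past the threshold, with a median log2 fold change of 0.09. Their median was -0.02 and 0.14 for the pairs of deprived array 1 and -0.01 and 0.16 for the pairs of deprived array 2. At their brightest probe sets 5 of the 17 were highest on deprived array 1. Their summed signal was 5421 and 5453 in deprived tissue, against 5230 and 5130 in non-deprived tissue, and none was listed at 0. Penk, the enkephalin precursor, which is abundant in D2-receptor neurons and also present in cortex, gave 1021 and 1193.3 in deprived and 956 and 984.4 in non-deprived cortex. Its log2 fold change was 0.18 ± 0.19 (SE), with an adjusted p of 0.999 in limma. Ptpn5, the striatum-enriched phosphatase STEP, gave -0.08 ± 0.18, and Dlx1, a transcription factor of GABA neurons, 0.73 ± 0.41 with an adjusted p of 0.98.

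A list for dopamine and adenosine signalling to cyclic AMP also held other receptors, such as Chrm4, Cnr1 and Gpr37. Its genes were mostly bright, and none of those tested passed. Of 20 listed, 12 had a probe set and 9 were tested, with 6 higher and 3 lower and a median log2 fold change of 0.09. At their brightest probe sets 2 of the 12 were highest on deprived array 1. Gnas, the stimulatory G protein gene, had a log2 fold change of -0.002 ± 0.28 (SE), and Prkar1a, a regulatory subunit of protein kinase A, -0.04 ± 0.19. Drd4, another dopamine receptor, gave 471.6 and 421.8 in deprived and 773.2 and 485.2 in non-deprived cortex. The log2 fold change of Drd4 was -0.41 ± 0.27 (adjusted p = 0.99 in limma).

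**Figure D4:**
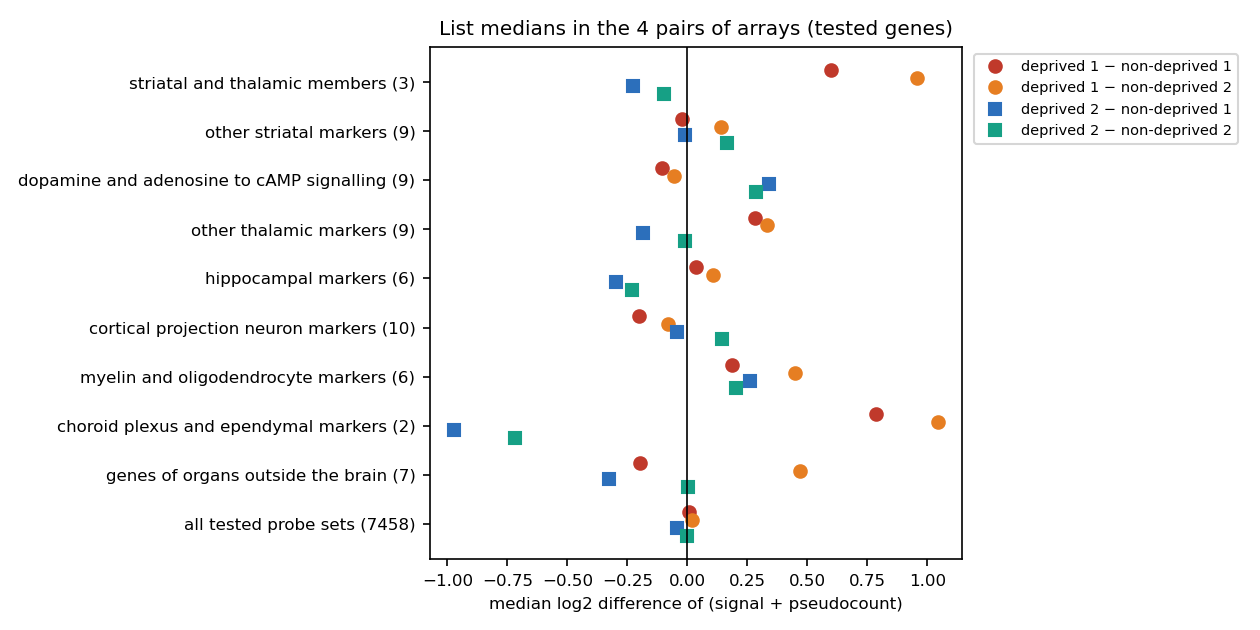
Median log2 difference of (signal + 60.6), deprived minus non-deprived, over the tested genes of each list (number in brackets) in each of the 4 pairs of arrays. Each listed gene is taken at its brightest probe set, which for Prkcd is 160698_s_at and not 104531_at. The members lie at 0.60 and 0.96 in the pairs with deprived array 1 and at -0.22 and -0.10 with deprived array 2, further apart than all tested probe sets but less far than the 2 choroid plexus genes.

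Markers of other tissue near visual cortex were set beside these. The 6 tested of 15 hippocampal markers had a median log2 fold change of -0.02, with 3 higher and 3 lower and none past the threshold. Bok, enriched in the CA3 field, gave 922.1 and 910.6 in deprived and 1179 and 1266.2 in non-deprived cortex, and Mas1, a G-protein-coupled receptor, gave 873.7 and 988.2 against 1394.6 and 1113.8. At both the deprived arrays lay below the non-deprived ones, as at 17.1% of all tested probe sets, and the adjusted p was 0.92 and 0.94 in limma. The 6 tested of 9 myelin genes had a median of 0.27, with 5 higher and none past the threshold; Mbp had a log2 fold change of 0.14 ± 0.18 (SE) and Mobp of 0.47 ± 0.17, with an adjusted p of 0.69. The 10 tested of 19 markers of cortical projection neurons had a median of -0.03, with 5 higher, 5 lower and none past the threshold. Nr4a2, their tested gene with the smallest p, gave -0.47 ± 0.30 (adjusted p = 0.99), and at their brightest probe sets none of their 11 measured genes was highest on deprived array 1. At a dimmer probe set Nr4a2 and Mef2c were.

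At their brightest probe sets all 4 measured choroid plexus genes were highest on deprived array 1, as Drd2 was. These probe sets were dim, with a median mean signal of 142.6. Of all probe sets, 43.2% in band 1 and 50.5% below the minimum for testing were highest on that array. The summed signal of the 4 genes was 974 and 166.5 in deprived tissue, against 451.8 and 429 in non-deprived tissue. Aqp1, a water channel, gave 387.5 and 69.5 in deprived and 300.6 and 47.0 in non-deprived cortex, and Folr1, a folate receptor, 298.4 and 47.4 against 89.0 and 292.1. Ttr, the most abundant transcript of choroid plexus, gave 258.3 and 39.8 against 48.7 and 67.0, below the minimum for testing. The 2 tested genes, Aqp1 and Folr1, had log2 fold changes of 0.29 ± 0.72 and -0.22 ± 0.68 (SE), both at an adjusted p of 0.999 in limma.

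Genes of organs outside the brain were counted too, a list chosen after the members' values were seen. Of 17 genes of liver, kidney, pancreas, testis, muscle and skin, 10 were highest on deprived array 1, 11 lowest on deprived array 2 and 8 were both, at their brightest probe sets. Their median mean signal was 96.1, with a range from 20.6 to 1558. The 7 tested genes had a median log2 fold change of -0.09, with 3 higher, 4 lower and none past the threshold. In the 4 pairs their median was -0.20 and 0.47 with deprived array 1 and -0.33 and 0.002 with deprived array 2. Albumin (Alb) gave 208.9 and 75.4 in deprived and 174.9 and 129.2 in non-deprived cortex, and the sperm protamine gene Prm1 197.1 and 26.6 against 85.9 and 74.9. Both were named after their values were seen, and both are among the 8. The mean signals of the 6 member probe sets ran from 59.4 for Rgs9 to 711.9 for Prkcd 160698_s_at. All but Rgs9 lay above the list's median of 96.1. All 6 lay within the list's range, but that range is so wide that most probe sets would. Signals of different probe sets are also not a measure of relative level. Detection calls were not used here, so a low signal of a member cannot be told apart from background hybridisation, and in pooled tissue fewer cells of a type and less RNA per cell cannot be told apart either.

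RNA quality also differed between the arrays. For actin, the signal of the 5′ end divided by that of the 3′ end was 0.544 and 0.463 in deprived tissue, against 0.638 and 0.632 in non-deprived tissue. The same quotient for Gapdh was 0.745 and 0.689 against 0.875 and 1.07. Deprived array 2, where all 6 member probe sets were lowest, had the lowest quotient for both genes, while deprived array 1, where 5 of the 6 were highest, had the next lowest. The part of RNA quality in the members' signals was not tested.

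Probe sets with an array profile most like the median of the tested member genes were sought. Each profile was the 4 log2 values minus their mean. The median profile of the 3 tested genes was 0.69 and -0.32 in deprived tissue, against -0.06 and -0.25 in non-deprived tissue. Both deprived values of this median were those of Prkcd at 160698_s_at. At the other Prkcd probe set, 104531_at, not used for the profile, both deprived arrays lay below both non-deprived arrays. Nearest were Cd82, a membrane protein of the tetraspanin family, at a root mean square distance of 0.021, and Ikzf4, a zinc-finger transcription factor of lymphocytes, at 0.027. Next were Serpinf2, a plasmin inhibitor made in liver, at 0.032, Pan2, a poly(A) nuclease subunit, at 0.039, and Mybpc3, a cardiac muscle protein, at 0.040. Cd82 gave 819.8 and 377.9 in deprived and 452 and 403.7 in non-deprived cortex. None of these 5 passed the test (adjusted p = 0.999 in limma), and with 4 arrays many probe sets share a profile: 46 of the 6703 others that name 1 gene lay within 0.1.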

How the data were processed

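The authors deposited 1 intensity per probe set and array, and MAS5 is the tool that the submitters' processing notes name. Its version and scaling target are unknown here, and detection calls were not used. The 2% trimmed mean lay between 500.3 and 500.4 on each array. Symbols came from the platform's annotation table, which names 1 gene for 10833 non-control probe sets, and for 10817 of these a RefSeq table of GRCm38.p6 gave the current symbol by Entrez identifier. No coordinates are given, because the probes' positions were not used here.

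Arrays were scaled to a common 2% trimmed mean, and the 20th percentile of the mean signals, 60.6, was added before log2, which understates changes of dim probe sets. The 66 controls and probe sets below the 40th percentile, 142.9, were left out. limma 3.58.1 in R 4.3.3 (eBayes with a mean-variance trend, 2 residual and 11.6 total degrees of freedom) compared the groups, two-sided, with Benjamini-Hochberg adjustment over 7458 probe sets and a threshold of 0.05. The number of arrays limits the precision. With 2 arrays against 2, the smallest p of an exact two-sided permutation test is 0.333. The test was tried on simulated data, with 200 changes among 7458 probe sets and 20 runs. It called 5.22% of changes of 0.5 on the log2 scale, 43.8% of those of 1 and 81.5% of those of 2, and 7.07% of calls were false. These shares were not worked out for the members, whose SE ran from 0.24 for Tcf7l2 102241_f_at to 0.56 for Tcf7l2 97660_s_at among those tested.

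Replicate numbers were read as pairing the arrays only because the series' design text sets cross-animal comparisons apart; no label ties a number to an animal. The deviations of same-numbered arrays correlated with r = 0.27 over probe sets. The fit without the block was the main one. The members, gene lists and tests were chosen with earlier results of these data known. For each list the 2 genes brightest by their brightest probe set and the tested gene with the smallest p were to be named. So were every member and the 5 probe sets nearest the members' median profile. Alb, Prm1, Gbx2 and Ttr were named after their values were seen. Alternatives were other scalings, pseudocounts and minimum signals, no variance trend, the replicate block and leaving out each array.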

Additional observations from a re-analysis of the deposited data

How the results depend on the processing

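No member probe set passed under any alternative run, and the lowest adjusted p in limma was 0.10. The count of 8 probe sets over the whole array became 3 with arrays scaled to a common median, 1 after quantile normalization, 0 without the variance trend (390 at an unadjusted p under 0.05) and 40 with the replicate block, and ran from 5 to 90 with 1 array left out. The members' median of 0.14 stayed there with the replicate block, which changed no member's call, and was 0.04 over all 5 tested probe sets and 0.20 with a minimum signal at the 60th percentile, which left 2 genes. With 1 array left out it ran from -0.14 to 0.78, turning below 0 without deprived array 1. Leaving out an array also turned the sign of Drd2 (range -0.51 to 0.78, with -0.045 without non-deprived array 2), Prkcd 160698_s_at (-0.14 to 0.87) and Tcf7l2 102241_f_at (-0.058 to 0.14) and 97660_s_at (-0.38 to 0.37, with 0.074 without non-deprived array 1). The last was also 0.0049 with a pseudocount at the 40th percentile. Prkcd 104531_at stayed below 0 in every alternative run, between -0.21 and -0.16. Of 56 fold changes of member probe sets under an alternative, 49 kept their sign and side of the threshold and 7 turned in sign. The 56 leave out probe sets that fell below the minimum signal. Tcf7l2 97660_s_at did so with a common median, after quantile normalization and with a minimum at the 60th percentile, and Drd2 with the last. Where a group is left with 1 array, its spread is taken from the other group. The medians of other lists moved by more than their spread over pairs in few alternatives: further striatal markers gave -0.052 without non-deprived array 2, cyclic AMP signalling -0.15 without deprived array 2, hippocampal markers 0.19 with no minimum signal and -0.39 at the 60th percentile, and myelin genes 0.14 at the 60th percentile. The cause of these changes was not tested. Signal over background was not measured here, because detection calls were not used, and it may limit any member probe set.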
